A study of Mus musculus with 15 samples.

Results

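Transcripts of 6 cytokine genes that are typical products of group 2 innate lymphoid cells (ILC2) were followed in ILC2 and in group 3 innate lymphoid cells (ILC3) of the small intestine of female mice, over 4 zeitgeber times. The 6 genes, Il4, Il5, Il13, Csf2, Areg and Il10, were taken by name from 22797 genes in the count tables. All 6 passed the filter on low counts, which kept 15339 genes. The ILC2 groups held 2 libraries at ZT4, 2 at ZT10, 1 at ZT16 and 2 at ZT23 (n = 7 in all). The ILC3 groups held 2 libraries at each of these times (n = 8 in all). At each time the intestinal cells of 6 mice were pooled, stained and sorted by flow cytometry. Antibodies, gates, strain and age are not given, and no treatment other than the time of day is named. No source says whether replicate libraries stem from different pools of cells, so p-values may measure only technical spread.

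ILC2 are tissue lymphocytes without rearranged antigen receptors that depend on the transcription factor GATA3 and respond to alarmins such as IL-33 and IL-25. Their cytokines start type 2 responses in the gut, in which eosinophils are fed, goblet cells secrete mucus and the epithelium is repaired. ILC3 are known for IL-22 and IL-17, with GM-CSF as a further product.

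Library depth was 4016298 to 18538315 counts in ILC2 and 5903163 to 24794403 counts in ILC3. Of 8 ILC2 markers 7 were higher in ILC2 than in ILC3, and of 8 ILC3 markers 7 were lower in ILC2. The remaining ILC2 marker, the prostaglandin receptor gene Ptgdr2, was close to absent, with 6 counts over all ILC2 libraries and 42 over all ILC3 libraries. Markers of other cells differed as well. The summed level of 6 plasma cell markers was 19398 to 195570 CPM (counts scaled to a library total of 1000000) in ILC2 and 569 to 4525 CPM in ILC3, and 6 of 6 were higher in ILC2. The summed level of 10 mast cell and basophil markers was 14.8 to 427 CPM in ILC2 and 698 to 2897 CPM in ILC3, and 9 of 10 were lower in ILC2. Higher and lower counts in ILC2 were 6 and 4 of 11 T cell markers, 2 and 4 of 8 eosinophil markers, 3 and 0 of 5 B cell markers, 6 and 0 of 6 plasmacytoid dendritic cell markers, 0 and 3 of 8 macrophage markers, 0 and 1 of 8 epithelial markers and 1 and 0 of 6 stromal and endothelial markers. Over all genes kept, 12% were higher and 15.1% lower in ILC2, by the rule for calls given below. ILC2 ZT23 replicate 1 had the highest plasma cell sum of all libraries. In the labels, batch 1 is made up of the ILC2 libraries and batch 2 of the ILC3 libraries. Cell type and batch therefore cannot be told apart, and no within-batch value exists for the comparison of the cell types.

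Il4, Il13, Il5 and Csf2 lie in one region of chromosome 11 (GRCm38.p6, the assembly that mm10 names). Il4 (Entrez 16189) spans chr11:53612460-53618665 and Il13 (16163) spans chr11:53631323-53634702, both on the minus strand. Il5 (16191) spans chr11:53720794-53725103 on the plus strand, and Csf2 (12981) spans chr11:54247270-54249899 on the minus strand. Areg (11839) lies at chr5:91139599-91148432 and Il10 (16153) at chr1:131019845-131024970. The RefSeq promoter table held windows for 5 of the 6 genes, all but Il10. The 250 bases before the start site are printed for the 4 genes of chromosome 11, because they include the 3 with the largest differences between the cell types. Each runs 5′ to 3′ on the gene's strand, and capitals mark matches to the motifs searched.
Il4, chr11:53618666-53618915, minus strand: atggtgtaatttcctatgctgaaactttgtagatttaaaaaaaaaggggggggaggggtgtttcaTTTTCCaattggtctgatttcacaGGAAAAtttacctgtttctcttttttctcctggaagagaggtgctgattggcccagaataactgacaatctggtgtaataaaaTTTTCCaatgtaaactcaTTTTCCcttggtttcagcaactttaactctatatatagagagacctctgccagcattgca
Il13, chr11:53634703-53634952, minus strand: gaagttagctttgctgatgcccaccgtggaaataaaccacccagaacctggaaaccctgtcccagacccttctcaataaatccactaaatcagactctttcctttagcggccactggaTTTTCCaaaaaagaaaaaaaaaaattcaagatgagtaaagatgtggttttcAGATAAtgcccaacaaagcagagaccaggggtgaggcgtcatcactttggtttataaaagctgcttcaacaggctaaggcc
Il5, chr11:53720544-53720793, plus strand: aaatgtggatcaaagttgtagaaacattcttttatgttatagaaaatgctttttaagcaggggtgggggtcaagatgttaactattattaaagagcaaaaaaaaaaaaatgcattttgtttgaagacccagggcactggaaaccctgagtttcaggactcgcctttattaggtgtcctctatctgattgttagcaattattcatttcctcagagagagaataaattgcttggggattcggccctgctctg
Csf2, chr11:54249900-54250149, minus strand: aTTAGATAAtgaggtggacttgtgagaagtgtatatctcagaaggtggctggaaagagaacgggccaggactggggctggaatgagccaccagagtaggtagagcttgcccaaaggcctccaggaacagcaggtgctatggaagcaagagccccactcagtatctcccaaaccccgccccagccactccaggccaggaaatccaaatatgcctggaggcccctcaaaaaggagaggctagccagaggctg
Both strands were searched for the GATA motif AGATAA, the AP-1 motif TGANTCA, the E-box CACGTG, the ROR half-site AGGTCA, the D-box TTANNTAA and the NFAT core GGAAAA. The Il4 window held 4 NFAT cores, with first bases at -185, -161, -78 and -60 from the start site. The Il13 window held 1 GATA motif at -81 and 1 NFAT core at -132. The Csf2 window held 1 GATA motif at -247, which overlaps a D-box at -249. The letters of none of the 6 motifs were in the Il5 window, the Areg window or the window of a second Il4 start. Among 32851 promoter windows of the same length, 20.4% held an NFAT core, 14.0% a ROR half-site, 9.99% a GATA motif, 6.75% an AP-1 motif, 6.02% an E-box and 5.43% a D-box. A match describes the letters, not a bound site.

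The comparison of the cell types asks how far each cytokine transcript separates ILC2 from ILC3. All 6 genes were higher in ILC2, Il5 by 81.9-fold, Il4 by 35.7-fold, Il13 by 35.5-fold, Csf2 by 7.86-fold, Areg by 6.93-fold and Il10 by 3.30-fold in the means over the 4 times. Called here means an adjusted p under 0.05 in edgeR's quasi-likelihood test with Benjamini-Hochberg adjustment over all genes kept. By this rule 6 of 6 genes were called higher in ILC2, against 12% of all genes called higher and 27.1% called in either direction. Their median log2 fold change was 4.06, beside -0.11 over all genes. For Il4, Il5, Il13, Csf2 and Areg every ILC2 library lay above every ILC3 library, 5 of 6 genes, against 5.57% of all genes. Without TMM factors, by library size alone, the median of all genes moved to -0.26 and the calls split into 1315 higher and 2981 lower, against 1839 higher and 2318 lower with them, and the same 6 genes were called higher. In bulk libraries, fewer cells with a transcript and less RNA per cell cannot be told apart. Together the 6 genes took 0.0303% to 0.0757% of all counts in ILC2 libraries and 0.00393% to 0.00874% in ILC3 libraries.

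**Figure D1:**
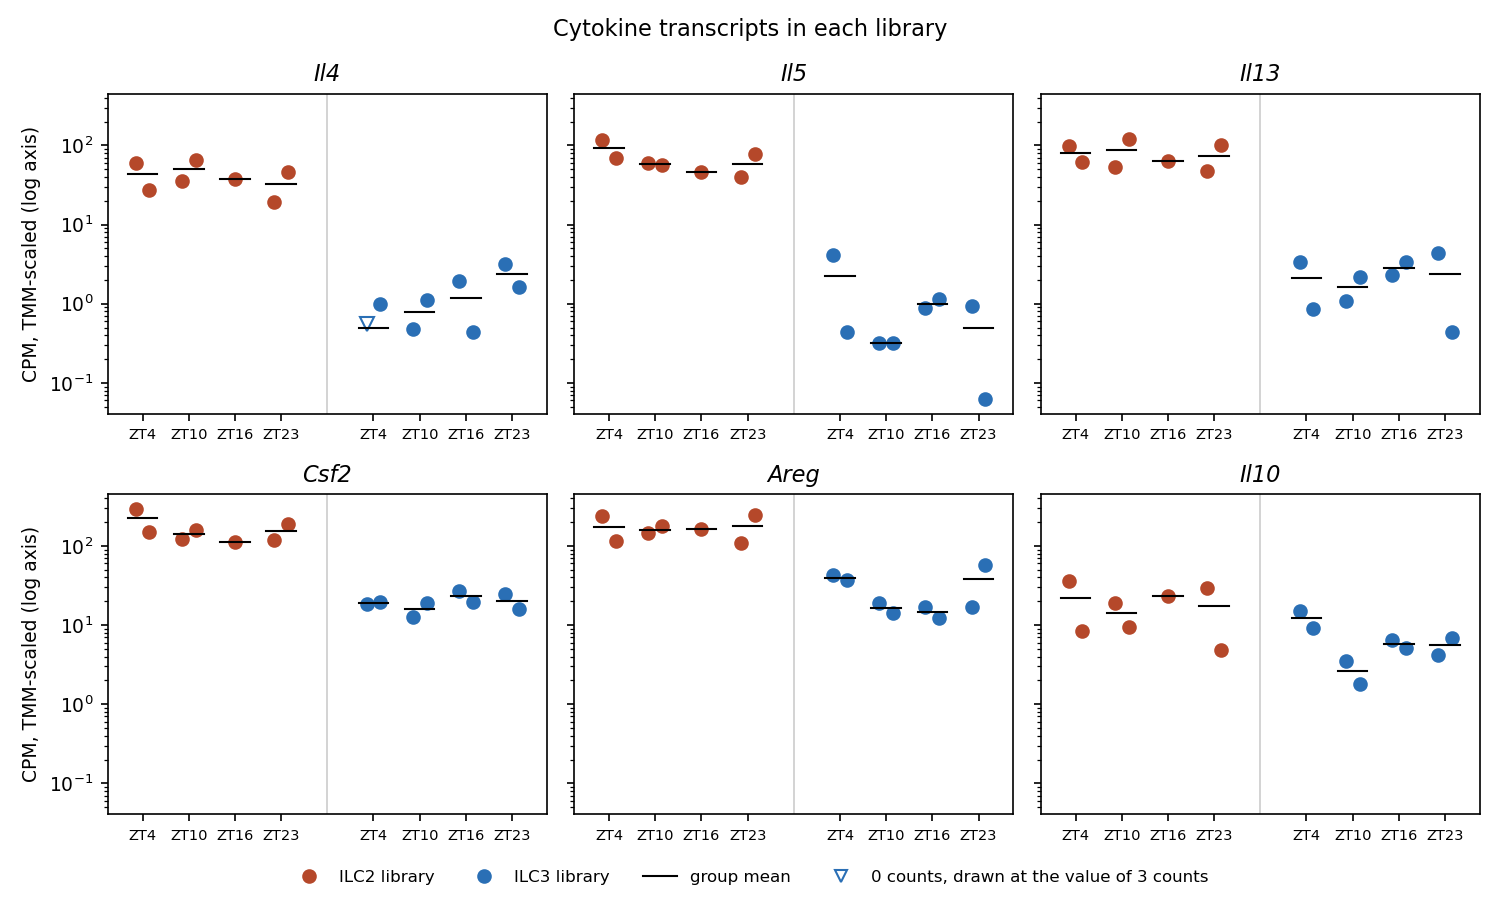
TMM-scaled CPM of each cytokine gene (log axis) in every library, by cell type and zeitgeber time; points are libraries, bars are group means and the open triangle is a library with 0 counts drawn at the value of 3 counts. The ILC2 points sit above all ILC3 points for 5 genes, while for Il10 the cell types overlap.

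Il5 encodes the growth and survival factor of eosinophils. In ILC2 it had 118 and 68.7 CPM at ZT4, 59.1 and 55.8 CPM at ZT10, 45.7 CPM at ZT16, and 39.8 and 77.2 CPM at ZT23. In ILC3 it had 4.09 and 0.435 CPM at ZT4, 0.318 and 0.317 CPM at ZT10, 0.881 and 1.13 CPM at ZT16, and 0.928 and 0.0624 CPM at ZT23. The lowest ILC2 library was 9.73 times the highest ILC3 library, so the groups did not overlap. The log2 fold change was 6.36 ± 0.48 (SE, adjusted p = 2.39e-06, edgeR), which ranked 31 of 15339 genes from the top. Without ILC3 ZT23 replicate 1 it was 7.10.

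Il13 encodes the cytokine that drives goblet cells and smooth muscle in worm expulsion. In ILC2 it had 98.3 and 61.0 CPM at ZT4, 53.9 and 120 CPM at ZT10, 63.3 CPM at ZT16, and 47.0 and 100.0 CPM at ZT23. In ILC3 it had 3.35 and 0.869 CPM at ZT4, 1.07 and 2.18 CPM at ZT10, 2.32 and 3.34 CPM at ZT16, and 4.37 and 0.437 CPM at ZT23. The lowest ILC2 library was 10.7 times the highest ILC3 library. The log2 fold change was 5.15 ± 0.46 (SE, adjusted p = 7.97e-06, edgeR), rank 102 of 15339, and 5.78 without ILC3 ZT23 replicate 1.

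Il4 encodes the cytokine that shares a receptor chain with IL-13 and drives class switching of B cells to IgE. In ILC2 it had 59.2 and 27.6 CPM at ZT4, 35.0 and 64.4 CPM at ZT10, 37.5 CPM at ZT16, and 19.1 and 45.7 CPM at ZT23. In ILC3 it had 0 and 1.00 CPM at ZT4, 0.477 and 1.11 CPM at ZT10, 1.95 and 0.443 CPM at ZT16, and 3.18 and 1.62 CPM at ZT23. The groups did not overlap, and the lowest ILC2 library was 6.00 times the highest ILC3 library. ILC3 ZT4 replicate 1 held no Il4 count, which at its depth allows up to 0.558 CPM (3 counts, counting error only). The log2 fold change was 5.16 ± 0.46 (SE, adjusted p = 7.86e-06, edgeR), rank 101 of 15339. Without ILC3 ZT4 replicate 2 the only ILC3 library of that time is the one at 0, and the fitted value of 6.76 then depends on the prior count.

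Csf2 encodes GM-CSF, which sustains intestinal myeloid cells. In ILC2 it had 296.2 and 149 CPM at ZT4, 122 and 158 CPM at ZT10, 113 CPM at ZT16, and 118 and 189.7 CPM at ZT23. In ILC3 it had 18.4 and 19.6 CPM at ZT4, 12.7 and 19.0 CPM at ZT10, 27.1 and 19.4 CPM at ZT16, and 24.3 and 15.9 CPM at ZT23. The cell types did not overlap, although Csf2 is also a known ILC3 product and was detected in all 8 ILC3 libraries with 99 to 585 counts. On the log2 scale the difference was 2.97 ± 0.20 (SE, adjusted p = 1.30e-06, edgeR), the smallest SE of the 6 genes.

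Areg encodes amphiregulin, a ligand of the EGF receptor that supports epithelial repair. In ILC2 it had 235 and 114 CPM at ZT4, 145 and 177 CPM at ZT10, 165 CPM at ZT16, and 109.7 and 248 CPM at ZT23. In ILC3 it had 42.4 and 36.9 CPM at ZT4, 18.9 and 14.4 CPM at ZT10, 16.8 and 12.3 CPM at ZT16, and 17.1 and 58.1 CPM at ZT23. The gap between the cell types was the narrowest of the 5 genes without overlap, with the lowest ILC2 library at 1.89 times the highest ILC3 library. The log2 difference was 2.79 ± 0.29 (SE, adjusted p = 1.95e-05, edgeR).

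Il10 encodes a cytokine that restrains inflammation. In ILC2 it had 35.7 and 8.53 CPM at ZT4, 18.9 and 9.39 CPM at ZT10, 23.4 CPM at ZT16, and 29.6 and 4.81 CPM at ZT23. In ILC3 it had 15.1 and 9.26 CPM at ZT4, 3.50 and 1.82 CPM at ZT10, 6.45 and 5.07 CPM at ZT16, and 4.20 and 6.86 CPM at ZT23. The cell types overlapped: 4 of 7 ILC2 libraries lay above the highest ILC3 library, and the lowest ILC2 library lay below 5 of 8 ILC3 libraries. The log2 fold change was 1.72 ± 0.43 (SE, adjusted p = 0.00998, edgeR) and was between 1.28, without ILC2 ZT23 replicate 1, and 1.92, without ILC2 ZT23 replicate 2. These are the ILC2 libraries with the highest and the lowest plasma cell sums. Over the 7 ILC2 libraries Il10 and the plasma cell gene Jchain had a Pearson r of 0.70 (exact permutation p = 0.0817, adjusted 0.245 over 48 relations, Spearman rho 0.61, exact permutation p = 0.167), and r was 0.21 without the 2 libraries farthest from the Jchain median. What plasma cell RNA contributes to Il10 was not tested.

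Per kilobase of transcript, which allows genes to be set side by side, the ILC2 levels were 158 ± 62.5 for Csf2, 142 ± 45.3 for Areg, 64.4 ± 23.3 for Il13, 48.8 ± 19.4 for Il4, 43.2 ± 17.0 for Il5 and 14.2 ± 8.91 for Il10 (CPM per kb, SD, n = 7). Over libraries the ranges of Csf2 and Areg overlapped, as did those of the neighbours Il13, Il4 and Il5. Differences between genes were not tested. Paired within libraries, however, Il4 and Il5 lay below Il13 in all 7 ILC2 libraries. Il4 was 0.580 to 0.928 of Il13, and Il5 was 0.365 to 0.943 of Il13. In ILC3 the levels were 22.6 ± 13.9 for Areg, 18.9 ± 4.37 for Csf2, 5.0 ± 3.16 for Il10, 1.86 ± 1.15 for Il13, 1.45 ± 1.20 for Il4 and 0.665 ± 0.844 for Il5 (CPM per kb, SD, n = 8). There Il10 stood above the 3 type 2 genes in the mean, whereas in ILC2 it was the lowest of the 6. Il10 over Il13, both per kb, had a median of 0.323 (0.0444 to 0.582) in ILC2 and of 2.79 (0.772 to 14.5) in ILC3, with no overlap. The ratio carries the cell type differences, 35.5-fold for Il13 and 3.30-fold for Il10. In ILC3 it rests on 7 to 99 Il13 counts per library, and the 14.5 on 7.

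Taken time by time, Il4, Il5, Il13, Csf2 and Areg were called higher in ILC2 at each of the 4 times, and Il10 at none. The count was 5 of 6 at each time. Of all genes, 2.7% were called higher and 7.21% in either direction at ZT4, followed by 2.54% and 6.31% for ZT10, 1.72% and 3.29% for ZT16, and 3.79% and 6.84% for ZT23. At ZT16 the ILC2 group is 1 library, assumed to vary like the other groups. The log2 fold change of Il5 was 5.70, 7.46, 5.50 and 6.76 at ZT4, ZT10, ZT16 and ZT23, with SEs of 0.92 to 0.99. That of Il4 was 5.97, 5.96, 4.96 and 3.74, with SEs of 0.84 to 0.97, and was lowest at ZT23. There Il4 had its highest time mean in ILC3 (2.40 CPM) and its lowest in ILC2 (32.4 CPM). For Il13 it was 5.49, 5.74, 4.48 and 4.89. Whether the folds differ between times is the interaction given with the time course. Csf2 had 3.55, 3.15, 2.27 and 2.93, Areg 2.14, 3.27, 3.50 and 2.25, and Il10 0.86, 2.39, 2.02 and 1.63. The adjusted p of Il10 was 0.575, 0.144, 0.355 and 0.265 in edgeR, and DESeq2 called it at ZT10 (log2 fold change 2.40, adjusted p = 0.0299).

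The calls at single times rest on few libraries. At ZT16 none of the 5 kept its call without ILC3 ZT16 replicate 1 (lowest adjusted p 0.0541, for Il4) or without ILC3 ZT16 replicate 2 (0.0849, for Il5), which leaves 1 library on each side. The ZT16 log2 fold change of Il4 was 6.40 without ILC3 ZT16 replicate 1 and 4.28 without ILC3 ZT16 replicate 2. At ZT10 Il4 and Il13 lost the call without ILC3 ZT10 replicate 1 (adjusted p 0.0501 and 0.0518) and Areg without ILC3 ZT10 replicate 2 (0.0694). At ZT23 Il4 and Areg lost it without ILC2 ZT23 replicate 2 (0.0951 and 0.178) or ILC3 ZT23 replicate 1 (0.0517 and 0.0902), and Il4 without ILC3 ZT23 replicate 2 (0.137). At ZT4 Areg lost it without ILC2 ZT4 replicate 1, ILC3 ZT4 replicate 1, ILC3 ZT4 replicate 2 or ILC3 ZT10 replicate 2 (0.0518 to 0.174) and with library size as the only scaling (0.0501).

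Several single-time log2 fold changes moved by over 1.5 times in linear fold without 1 library. At ZT4 Il5 was 7.72 without ILC3 ZT4 replicate 1 and 4.50 without ILC3 ZT4 replicate 2, Il13 was 6.50 and 4.57, and Il4 was 5.36 without ILC2 ZT4 replicate 1. The ZT4 fold of Il4 without ILC3 ZT4 replicate 2 is set against 0 counts and is not given. At ZT10 Il13 was 5.06 without ILC2 ZT10 replicate 2 and 6.34 without ILC3 ZT10 replicate 2, and Il4 was 6.69 without the same ILC3 library. At ZT23 Il5 was 9.70 without ILC3 ZT23 replicate 1 and 5.97 without ILC3 ZT23 replicate 2. The ZT23 value of Il13 was 7.37 without ILC3 ZT23 replicate 1, 4.07 without ILC3 ZT23 replicate 2 and 4.24 without ILC2 ZT23 replicate 2. At the same time Il4 was 2.97 without ILC2 ZT23 replicate 2, and Areg was 1.55 without ILC2 ZT23 replicate 2, 1.62 without ILC3 ZT23 replicate 1 and 3.38 without ILC3 ZT23 replicate 2.

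**Figure D2:**
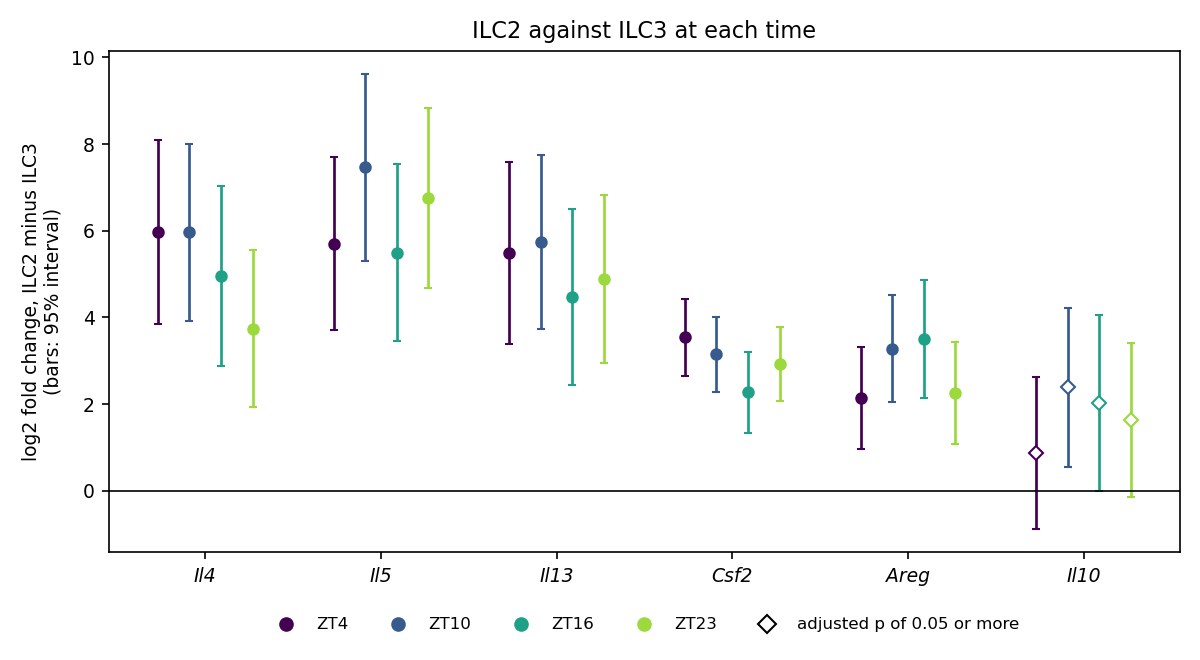
Log2 fold change of each cytokine gene, ILC2 minus ILC3, at each zeitgeber time with its 95% interval from edgeR; open diamonds have an adjusted p of 0.05 or more. Il4, Il5, Il13, Csf2 and Areg lie above 0 at all 4 times, and Il10 has open symbols throughout.

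The second comparison asks whether the cytokine genes changed over the day within a cell type. None of the 6 was called over the 4 times in ILC2 or ILC3, and none had a called interaction of cell type and time, by edgeR, DESeq2 or limma voom. The background was 0% in all 3 tests: edgeR called 0 genes in ILC2, 0 in ILC3 and 0 for the interaction, with 516, 669 and 307 genes at an unadjusted p under 0.05, while DESeq2 called 24, 31 and 2 genes and limma voom 0 in each test. Among the 6 genes only Areg in ILC3 had an unadjusted p under 0.05 (0.0333, adjusted p = 0.965, edgeR). It averaged 39.7 ± 3.89 CPM at ZT4, then 16.6 ± 3.19 CPM for ZT10, 14.6 ± 3.21 CPM for ZT16 and 37.6 ± 29.0 CPM for ZT23 (SD, n = 2 each), and the ZT23 mean rests on replicate 2 at 58.1 CPM. That library also had the highest sums of epithelial markers (3621 CPM, with a median of 443 CPM over the 8 ILC3 libraries) and of plasma cell markers (4525 CPM, median 1524 CPM) in ILC3, and their part in its Areg level was not tested.

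The replicates of 1 time often lay as far apart as the times. For Il13 in ILC2 the highest time mean, 87.0 ± 46.8 CPM at ZT10, was 1.37 times the lowest, 63.3 CPM at ZT16, while the ZT10 replicates differed 2.23-fold. For Il4 in ILC2 the highest mean, 49.7 ± 20.8 CPM at ZT10, was 1.53 times the lowest, 32.4 ± 18.9 CPM at ZT23, and the ZT23 replicates differed 2.40-fold. Areg was the flattest in ILC2, with time means 1.11-fold apart. Il5 was highest at ZT4 in ILC2 (93.3 ± 34.7 CPM) and 2.04 times the single ZT16 library, and its widest replicate pair differed 1.94-fold. Csf2 had its highest mean at ZT4 too (222 ± 104 CPM), 1.98 times the ZT16 library, with the lowest unadjusted p of the 6 in ILC2 (0.168, adjusted p = 1, edgeR). In ILC3 the time means of Il10 were 4.57-fold apart, 12.2 ± 4.11 CPM at ZT4 and 2.66 ± 1.19 CPM at ZT10, against at most 1.92-fold between replicates (unadjusted p = 0.120, adjusted p = 0.965, edgeR).

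Set as the mean of ZT16 and ZT23 minus the mean of ZT4 and ZT10, no gene was called in either cell type, 0% of all genes by edgeR, with 598 genes in ILC2 and 786 in ILC3 at an unadjusted p under 0.05 and none of the 6 among them. DESeq2 and limma voom called 0 of the 6 as well. In ILC2 the log2 changes were -0.50 ± 0.57 for Il5, -0.42 ± 0.29 for Csf2, -0.41 ± 0.59 for Il4, -0.29 ± 0.59 for Il13, 0.04 ± 0.41 for Areg and 0.19 ± 0.63 for Il10 (SE). The direction for Il10 rests on single libraries, since its change was -0.71 without ILC2 ZT23 replicate 1 and 0.89 without ILC2 ZT4 replicate 1. The 95% intervals all held 0, and that of Csf2, the narrowest in ILC2, ran between -1.06 and 0.21, which still holds a fall of 1 log2 unit at the later times. In ILC3 Il4 had the largest change, 1.20 ± 0.62 (SE, 95% interval -0.15 to 2.56, unadjusted p = 0.0762, adjusted p = 0.948, edgeR). It was 0.53 without ILC3 ZT16 replicate 1, and 4.41 without ILC3 ZT4 replicate 2, where ZT4 rests on a library with 0 Il4 counts and the value depends on the prior count. Its ILC3 time means were 0.500, 0.794, 1.20 and 2.40 CPM in time order, from 23, 40, 51 and 98 summed counts.

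The levels of the cytokine genes were also set against each other and against Gata3, Jchain and Mcpt1 across the libraries of one cell type. In ILC2, Il4 and Gata3, the factor on which ILC2 depend, had a Pearson r of 0.96 on log2(CPM + 1) over 7 libraries (exact permutation p = 0.000595, adjusted 0.0143 over 48 relations). Spearman rho was 0.96 (exact permutation p = 0.00278, adjusted 0.0667), and r was 0.86 without the 2 libraries farthest from the Gata3 median. Gata3 was between 302.0 CPM in ILC2 ZT23 replicate 1 and 665 CPM in ILC2 ZT10 replicate 2, the libraries with the least and the most Il4. With Gata3, r was 0.86 for Il13, 0.85 for Areg, 0.64 for Csf2, 0.63 for Il5 and -0.25 for Il10. Their adjusted exact permutation p was 0.147 to 0.734. Il4 and Il13 had r = 0.91 (exact permutation p = 0.00357, adjusted 0.0476) and rho = 0.93 (exact permutation p = 0.00675, adjusted 0.108), with r = 0.90 without 2 libraries. Il5 and Csf2 had r = 0.93 (exact permutation p = 0.00397, adjusted 0.0476), rho = 0.86 (exact permutation p = 0.0238, adjusted 0.143) and r = 0.77 without 2 libraries. The points share library, depth and scaling. Jchain, at 18105 to 188360 CPM in these libraries, had r = -0.69 with Il4 (exact permutation p = 0.0806, adjusted 0.245, rho -0.68, exact permutation p = 0.110), and r was -0.61 without 2 libraries. With Jchain, r was -0.74 for Areg, -0.72 for Il13, -0.43 for Il5 and -0.38 for Csf2 (adjusted exact permutation p 0.234 to 0.569). The part of Jchain in these relations was not tested.

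In ILC3, Il4 and the mast cell protease gene Mcpt1 had r = 0.95 over 8 libraries (exact permutation p = 0.000372, adjusted 0.0143) and rho = 0.98 (exact permutation p = 0.000397, adjusted 0.0190), and r = 0.86 without the 2 libraries farthest from the Mcpt1 median. Mcpt1 was between 300.2 CPM in ILC3 ZT4 replicate 1, which had no Il4 count, and 1723 CPM in ILC3 ZT23 replicate 1, which had the most Il4. Il13 and Mcpt1 had r = -0.03 (exact permutation p = 0.944, rho -0.07, exact permutation p = 0.882). The other mast cell and basophil markers were not among the relations computed, so no r with Il4 is known for them. The markers Cpa3 and Mcpt8 were highest in ILC3 ZT23 replicate 1 (134 and 45.3 CPM), as was Il4. They were lowest in ILC3 ZT23 replicate 2 (53.4 and 11.2 CPM), where Il4 was 1.62 CPM. In ILC3 ZT4 replicate 1, without an Il4 count, they had 122 and 30.5 CPM. The sum of the 10 mast cell and basophil markers, Mcpt1 included, went another way than Cpa3 and Mcpt8. It was lowest in ILC3 ZT4 replicate 1 (698 CPM) and highest in ILC3 ZT23 replicate 1 (2897 CPM). In ILC3 ZT23 replicate 2 it was 1622 CPM. Mast cells are themselves a source of IL-4, and what they contribute to the ILC3 Il4 counts was not tested. Of the mast cell and basophil markers in ILC2, the protease genes Cma1 and Mcpt8 had 0 and 2 counts over all libraries, but Mcpt1 had 7128 (1.87 to 282 CPM) and Mcpt2 3024. In ILC3 Cma1 averaged 10.6 ± 5.82 CPM, Mcpt8 23.1 ± 10.6 CPM and Mcpt1 895 ± 438 CPM (SD, n = 8).

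The eosinophil markers were split. The peroxidase gene Epx had 0 counts in ILC2 and 1 in ILC3, and Ear1 had 0 in ILC2 and 47 in ILC3. The granule protein gene Prg2 was higher in ILC2, at 183 ± 145 CPM in ILC2 and 2.24 ± 1.64 CPM in ILC3, and so was Rnase2b, at 14.2 ± 8.78 CPM in ILC2 and 0.171 ± 0.163 CPM in ILC3 (SD, n = 7 and 8, adjusted p = 5.76e-06 and 3.76e-05, edgeR). Siglecf, Ccr3, Ear1 and Ear2 were lower in ILC2. Within ILC2, Prg2 was lowest in ILC2 ZT23 replicate 2 (30.4 CPM) and highest in ILC2 ZT23 replicate 1 (471 CPM). These were also the ILC2 libraries with the least and the most Jchain, and which cells gave the Prg2 RNA was not tested. T cell markers were present in both cell types and were split as well. Cd28, Cd8b1, Cd6, Cd5, Lat and Foxp3 were higher in ILC2, with Cd28 at 263 ± 61.3 CPM in ILC2 and 12.01 ± 2.02 CPM in ILC3 and Cd8b1 at 89.3 ± 35.0 CPM in ILC2 and 1.36 ± 0.785 CPM in ILC3. Cd3d, Cd3e, Cd3g and Cd8a were lower in ILC2, with the T cell receptor subunit gene Cd3e at 64.7 ± 26.5 CPM in ILC2 and 262 ± 143 CPM in ILC3 (SD, n = 7 and 8). The part of RNA from these cells in the cytokine counts was not tested.

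**Figure D3:**
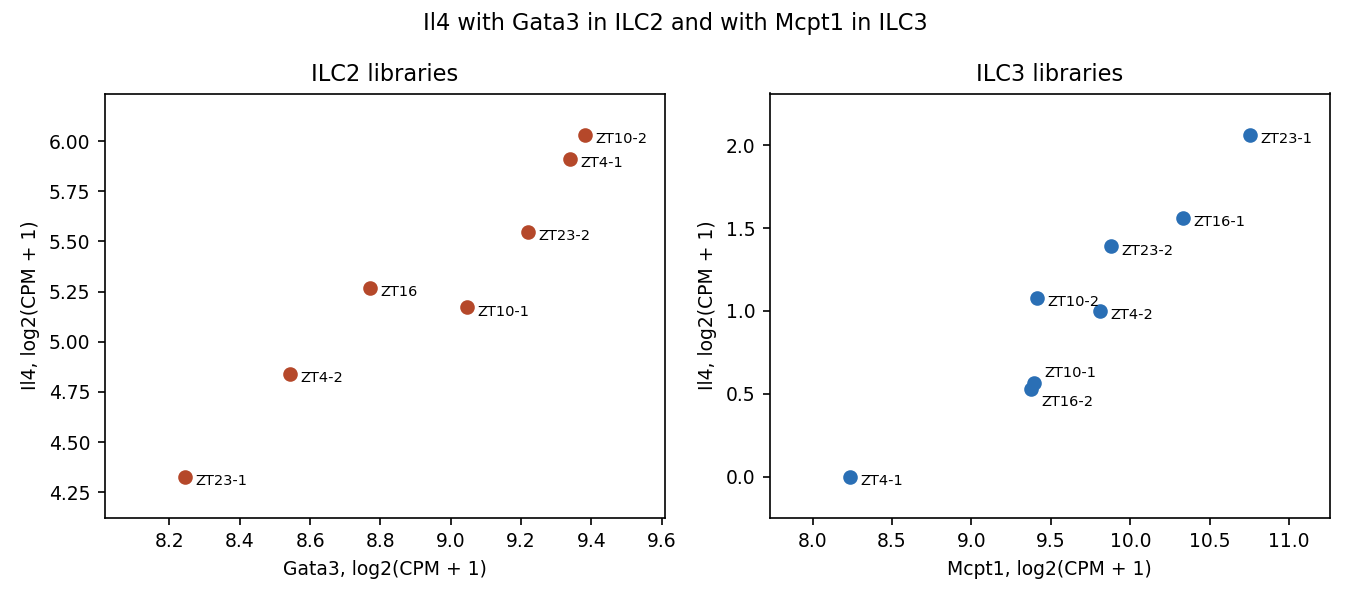
Il4 against Gata3 in the 7 ILC2 libraries and against Mcpt1 in the 8 ILC3 libraries, all as log2(CPM + 1), each point labelled with its time and replicate. The points rise along a line in both panels, with Pearson r of 0.96 in ILC2 and 0.95 in ILC3.

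On chromosome 11 no neighbouring gene was as far above its ILC3 level in ILC2 as Il4, Il13, Il5 and Csf2. Il4 and Il13 are separated by 12.658 kb, and Rad50, a DNA repair gene that lies between Il13 and Il5, was higher in ILC2 by 0.72 ± 0.22 on the log2 scale (SE, adjusted p = 0.0281, edgeR). Kif3a, a motor protein gene 8.212 kb from Il4, was higher by 0.98 ± 0.18 (adjusted p = 0.00129) and Irf1, 44.9 kb from Il5, by 0.94 ± 0.16 (adjusted p = 0.000905). Il3, which lies 15.2 kb from Csf2, had 13 counts in all ILC2 libraries and 14 in all ILC3 libraries, where Csf2 had 12821 and 3133. Near Areg, the other EGF-family genes were low, with 43 counts of Ereg in ILC2 and 177 in ILC3 and 0 of Epgn in ILC2 and 2 in ILC3. Near Il10, the family members Il19, Il20 and Il24 had 1, 0 and 0 counts in ILC2 and 3, 0 and 2 in ILC3. Of 28 such neighbours 24 were tested, 7 were called higher and 3 lower in ILC2, and their median log2 fold change was -0.16. Over all genes 12% were called higher and 15.1% lower. The 4 with the smallest p were Dyrk3 (2.05), Eif2d (0.77), Aff4 (1.11) and Irf1.

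**Figure D4:**
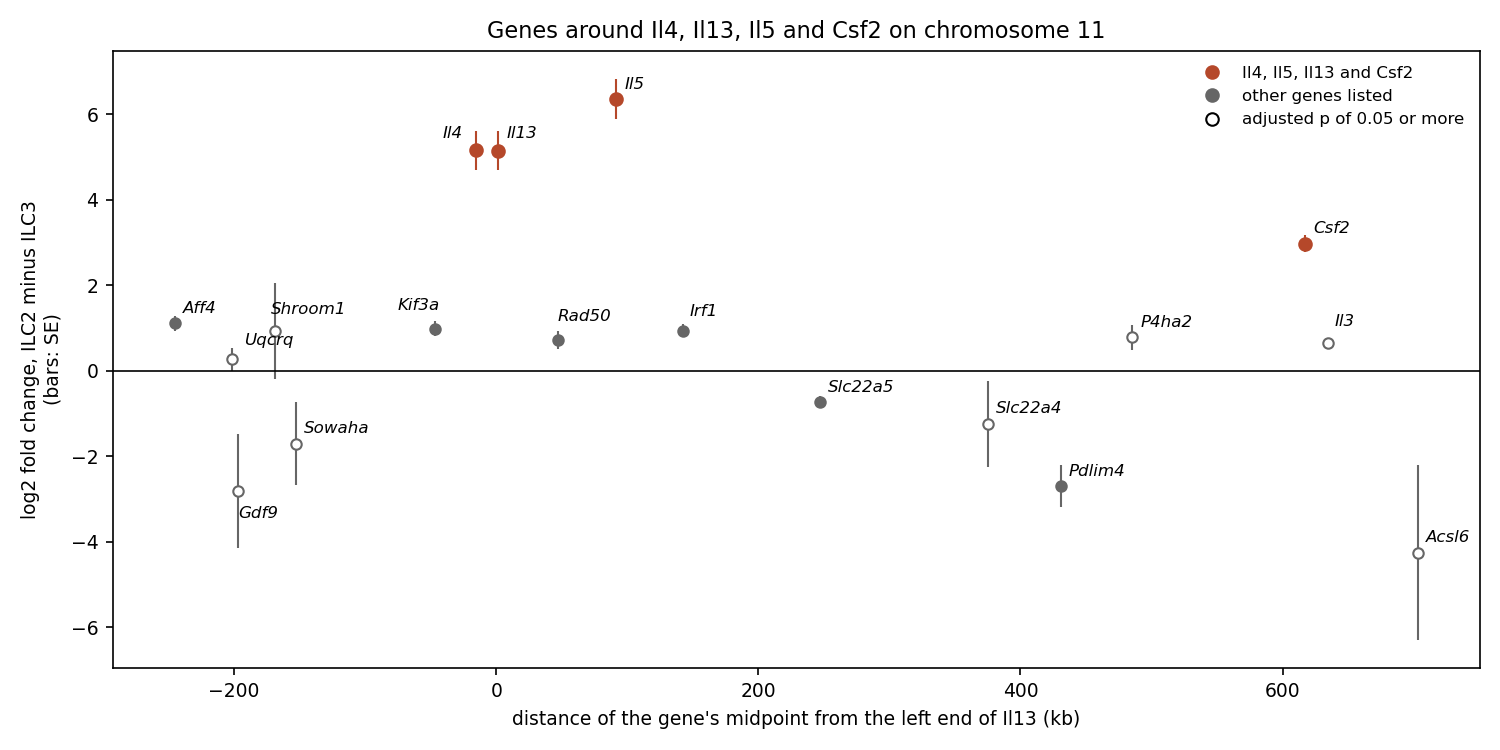
Log2 fold change, ILC2 minus ILC3, of genes on chromosome 11 by the distance of their midpoint from the left end of Il13 in kb; bars are SEs, and open circles have an adjusted p of 0.05 or more. Il4, Il13, Il5 and Csf2 stand above all other genes shown; Il3 has no bar because its F statistic was 0 to rounding, and the value of Acsl6 is set against 0 ILC2 counts and depends on the prior count.

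Among 28 regulators of type 2 cytokine genes 7 were higher and 5 lower in ILC2, with a median log2 fold change of -0.06. The share of all genes was 12% higher and 15.1% lower, for this list and those that follow. Those with the smallest p included Gata3 (3.85 ± 0.25), the repressor gene Bhlhe41 (5.10 ± 0.58) and Tcf7, which encodes TCF-1 (-2.03 ± 0.25, SE). Of 30 receptors that drive or restrain ILC2 cytokine output 14 were higher and 4 lower (median 0.50). These were led by the prostacyclin receptor gene Ptgir (6.00 ± 0.26), the IL-25 receptor gene Il17rb (6.27 ± 0.28), the inhibitory receptor gene Klrg1 (5.81 ± 0.27) and Il9r (4.80 ± 0.24). Klrg1, Il17rb and Gata3 are also in the ILC2 marker list.

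Genes listed with the receptors for the 6 cytokines were split. Of 10 tested of 11 listed, 3 were higher and 3 lower in ILC2, beside 12% and 15.1% of all genes, with a median of 0.28. The GM-CSF receptor chain gene Csf2ra (-2.01 ± 0.24) and its partner Csf2rb (-1.10 ± 0.22) were lower in ILC2, where Csf2 itself was higher. Il10rb (0.84 ± 0.11) and Csf2rb2 (1.08 ± 0.19) were higher. Csf2rb2 is a paralog of Csf2rb with which reads can be shared. It counts among the 3 higher genes but is not itself a known receptor chain for the 6 cytokines. Il13ra2, the decoy receptor of IL-13, had 0 counts in every library and was not tested. Of 19 tested among 20 other lymphocyte cytokine genes 6 were higher and 6 lower (median 0.54). The 4 with the smallest p were Csf1 (1.94 ± 0.20), Il22 (-5.66 ± 0.65), Lta (-2.16 ± 0.32) and Il1a (-2.06 ± 0.33). Il9, another cytokine known from ILC2, had 27 counts in all ILC2 libraries and 0 in all ILC3 libraries, and was not called. No gene of these 5 lists was called over time in either cell type by edgeR. At an unadjusted p under 0.05, which 3.36% of all genes had in ILC2 and 4.36% in ILC3, the regulators held 0 genes in ILC2 and 2 in ILC3 of 28 tested. The receptors of ILC2 output held 0 and 1 of 30, the receptors for the 6 cytokines 0 and 1 of 10, the other cytokine genes 1 and 1 of 19, and the neighbours 1 and 2 of 24 (ILC2, then ILC3).

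The genes whose levels were most like those of each cytokine were found by the Pearson r of log2(CPM + 1) over all 15 libraries, among 9451 genes. They were Scel (0.99), Spcs3 and Hs3st1 for Il5, Klrg1 (0.99), Il9r and Spcs3 for Il13, and for Il4 the 3 included Cd5 and Hs3st1. For Csf2 they were Hs3st1 (0.99), Klrg1 and Ccr8, for Areg Ets2 (0.98), Prxl2a and Slc7a8, and for Il10 Stx18 (0.88), Cep57 and Txnip. These values carry the difference between the cell types. Within the 7 ILC2 libraries, among 8692 genes, the leading genes were Gtf3c3 (0.97) for Il5, Spryd7 (0.98) for Il13, Cd27 (0.99) for Il4, Flvcr1 (0.99) for Csf2, Slc37a3 (0.98) for Areg and Rusc1 (0.98) for Il10. Each of these is the highest of 8692 values over only 7 libraries. How high such a value would be by chance was not tested. Prxl2a was among the leading 3 for Areg in both settings, and the 7 libraries are part of the 15. With a pseudocount of 0.1 in place of 1, Il4 kept 1 of its 3 genes over the 15 libraries, and each of the others kept 2 or 3.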

How the data were processed

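RNA was counted per gene in 15 libraries, 7 of ILC2 and 8 of ILC3, made with a TruSeq kit from 100 ng of RNA per the labels' protocols. The authors deposited raw counts per gene with an Entrez ID and a gene length in bases; featureCounts and mm10 are named per the submitters' processing notes. Aligner, strand setting and handling of multi-mapped reads are not given in the sources used here. Symbols and positions came from RefSeq (GRCm38.p6); 22718 of 22797 IDs had a symbol.

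Counts were fitted with edgeR 4.0.16 in R 4.3.3 (TMM factors, 0.835 to 1.10; filterByExpr, minimum count 10; quasi-likelihood test on 8 group means with 7 residual degrees of freedom; Benjamini-Hochberg over 15339 genes). ILC2 minus ILC3 is the difference of the means of the 4 times. SE is the log2 fold change divided by the square root of F. CPM are TMM-scaled. DESeq2 1.42.0, limma 3.58.1 (voom), library size as the only scaling, no filter, each library left out, a replicate block, removal of 7 plasma cell marker and immunoglobulin genes, and ZT23 left out (chosen after seeing the data) were alternatives. The 6 plasma cell markers were among the 7 genes removed, so that alternative hardly covered immunoglobulin genes. The fit was also run on simulated data, with the outcome not given here. Replicate libraries differed beyond sampling noise (chi-square per degree of freedom 22.0 to 229). Counting error only underlies the floor of 3 counts.

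Within each list the text names up to 4 called genes with the smallest p; genes of the locus, other neighbours named with counts, and the cell markers beside Il4 were picked by position or role, some after their values were seen. A regulator and a gene most like Il4 are not reported here. The 6 genes and the lists were chosen with earlier results of these data known.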

Additional observations from a re-analysis of the deposited data

Results flagged for a closer look

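Of 12 sets of values tested, 6 genes in each cell type, 2 held a library far from the others by Dixon's criterion at the 95% level, which flags about 1 in 20 sets by chance. Il5 in ILC3 was highest in ILC3 ZT4 replicate 1, at 4.09 CPM from 22 counts, with the other 7 ILC3 libraries between 0.0624 and 1.13 CPM. Csf2 in ILC2 was highest in ILC2 ZT4 replicate 1, at 296.2 CPM, with the other 6 ILC2 libraries between 113 and 189.7 CPM.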

How the results depend on the processing

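Of 876 signed values of single genes under an alternative, 821 kept their direction and side of the threshold, 23 lost the call, 1 gained it and 31 turned their direction, 0 of these where either value was called. The 378 values of the tests over time and of the interaction have no direction and kept their side of the threshold. In the means over the 4 times 6 of 6 genes were called under all 22 alternatives, with a highest adjusted p of 0.0329, for Il10, and 3270 to 4808 genes called in all. Leaving out ZT23 in both cell types, chosen after seeing the data, kept 6 of 6. The number of the 6 called with 1 library left out was 3 to 5 at ZT10, 0 to 5 at ZT16 and 3 to 5 at ZT23. Over time, DESeq2 called 24 genes in ILC2, 31 in ILC3 and 2 for the interaction, against 0 each by edgeR, and 0 to 3 were called in ILC3 with 1 library left out (3 without ILC3 ZT23 replicate 1); the cause was not tested. The uncalled log2 fold change of Il10 between the cell types, with 1 library left out, was -0.47 (without ILC2 ZT4 replicate 1) to 1.57 at ZT4 and -0.18 (without ILC2 ZT23 replicate 1) to 2.42 at ZT23.

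The differences between the later and the earlier times, none of them called, turned direction most often. With 1 library left out they were -0.71 to 0.89 for Il10, -0.32 to 0.35 for Areg and -0.61 to 0.11 for Il13 in ILC2, and -1.498 to 0.97 for Il5, -0.59 to 1.15 for Il13, -0.21 to 0.33 for Il10 and -0.70 to 0.18 for Areg in ILC3. Il10 was -0.19 in ILC2 with the replicate block. In ILC3, Il10 was 0.012 by DESeq2, 0.076 with library size as the only scaling, 0.012 without the filter, 0.090 by limma voom and 0.14 with the replicate block, and Il5 was 0.059 with library size as the only scaling and 0.025 by limma voom.

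Replicate numbers did not pair the samples throughout: over 21 pairs of groups the deviations of same-numbered libraries had r of -0.16 to 0.45, with 6 over 0.1. The highest were 0.45 for ILC2 ZT4 with ILC3 ZT4, 0.42 for ILC3 ZT4 with ILC3 ZT23 and 0.33 for ILC2 ZT4 with ILC3 ZT23. What these groups share was not tested. With the number as a replicate block, ILC2 ZT16 left out for lack of one (tests that need it were not run), 6 of 6 genes and 3873 of all genes were called in the means, Csf2 at 3.12, and no call of the 6 genes changed. ILC2 ZT16 is a single library. Il4, Il5 and Il13 rest on 0 to 72, 1 to 23 and 7 to 99 counts per ILC3 library, which limits differences over time there.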
